A study of Homo sapiens with 94 samples.

Results

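The genes described here are 10 inflammatory genes: the chemokines CXCL1, CXCL2, CXCL3, CXCL8, CCL2 and CCL20, the cytokines IL6, IL11 and LIF, and TNFAIP3, a feedback regulator of the same pathway. They were chosen by symbol from the 20257 genes of the deposited expression table, and all 10 were measured and passed the filter on low values, which kept 13036 genes.

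The tumors were subcutaneous xenografts of the human cell line NCI-H226, which came from a malignant pleural mesothelioma and lacks NF2, in female CB17/lcr-Prkdc scid/lcrIcoCrl (SCID) mice, so every group shared this genotype and host. Mice were given K-975, a covalent inhibitor of the lipid pocket of TEAD transcription factors, once by mouth at 30, 100 or 200 mg/kg, or vehicle, or were left untreated. Vehicle and 200 mg/kg were given in 20 mL/kg, but 30 and 100 mg/kg in 10 mL/kg, so that dose and volume cannot be told apart in comparisons of the lower doses with vehicle or in trends with dose. Tumors were taken 1 h, 3-6 h or 24 h later, each time in a study of its own (3 in all), which gave 94 libraries in 19 groups of 5, except that the 24 h vehicle group had 4. In the 3-6 h study the vehicle and dose arms held 10 tumors each, split over 2 cage groups, and the labels do not say which cage group was taken at 3 h and which at 6 h. The model is 1 cell line and the host keeps innate immune cells but lacks mature lymphocytes. In bulk tumors, fewer cells of a type and less RNA per cell cannot be told apart.

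Values are FPKM, which divide the fragments of a gene by its length and by the size of the library. Tests were made with limma on log2(FPKM + 1), with Benjamini-Hochberg adjustment over all 13036 genes, and a gene is called when its adjusted p is below 0.05. A total of 91 libraries had 11344 to 11665 genes that reached 1 FPKM and entered the fit. The other 3 held 702, 7196 and 8531 such genes, namely 24 h 30 mg/kg replicate 1, 24 h 100 mg/kg replicate 5 and 1 h 200 mg/kg replicate 1. In the first of these all 10 members were listed at 0. CXCL1 and CXCL3 were listed at 0 in all 3. Values with all 94 libraries are given where they change a call. NF2 had at most 0.148 FPKM in the 24 h vehicle tumors. The TEAD targets CCN1 and CCN2 were lower at 200 mg/kg than with vehicle at 24 h, by -1.26 ± 0.20 and -1.44 ± 0.21 log2 units (SE, limma adjusted p = 1.2e-05 and 2.1e-06). With all 94 libraries neither was called, since 0 of 13041 genes then were in that comparison.

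NF-kB is a dimer of Rel proteins that inhibitors hold in the cytoplasm until signals from receptors for IL-1 or TNF destroy the inhibitor. The freed dimer binds short sites in promoters of chemokines and cytokines, often together with AP-1, a dimer of FOS and JUN proteins. It also switches on its own brakes, among them TNFAIP3 (A20), a ubiquitin-editing enzyme that ends the signal. CXCL1, CXCL2, CXCL3 and CXCL8 attract neutrophils through CXCR1 and CXCR2. CCL2 attracts monocytes through CCR2, and CCL20 attracts cells with CCR6. IL6, IL11 and LIF signal through the shared receptor chain gp130 (gene IL6ST) to STAT3. IL6 and CXCL8 are known products of mesothelioma cells.

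The promoters are shown because most members vary together from tumor to tumor, as described below. RefSeq windows of the human assembly GRCh38.p14 were at hand for 8 of the 10 members (none for LIF and CCL2). Printed are the 150 bases up to the last base before the annotated start, 5′ to 3′ on the strand of the gene. Capitals mark matches to GGNNNTTCC on either strand, a short form of the site that NF-kB binds, except for IL11, where capitals mark TGANTCA, the core of an AP-1 site.
CXCL1 (chr4:73869243-73869392, + strand): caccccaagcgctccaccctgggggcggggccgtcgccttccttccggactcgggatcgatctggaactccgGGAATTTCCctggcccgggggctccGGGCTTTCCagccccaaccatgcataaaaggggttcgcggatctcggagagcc
CXCL2 (chr4:74099196-74099345, - strand): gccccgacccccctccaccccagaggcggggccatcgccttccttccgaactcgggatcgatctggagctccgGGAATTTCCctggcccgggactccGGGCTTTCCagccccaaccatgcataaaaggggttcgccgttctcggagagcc
CXCL3 (chr4:74038690-74038839, - strand): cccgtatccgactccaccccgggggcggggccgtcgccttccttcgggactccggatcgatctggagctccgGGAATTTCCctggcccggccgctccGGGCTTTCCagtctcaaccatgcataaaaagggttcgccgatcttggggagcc
CXCL8 (chr4:73740419-73740568, + strand): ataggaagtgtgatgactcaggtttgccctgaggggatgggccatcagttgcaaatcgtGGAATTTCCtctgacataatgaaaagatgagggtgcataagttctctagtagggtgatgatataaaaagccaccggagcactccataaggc
IL6 (chr7:22727050-22727199, + strand): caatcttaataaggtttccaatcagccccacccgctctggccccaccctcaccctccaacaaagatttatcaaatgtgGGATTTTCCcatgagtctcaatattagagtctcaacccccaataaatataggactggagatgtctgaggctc
IL11 (chr19:55370464-55370613, - strand): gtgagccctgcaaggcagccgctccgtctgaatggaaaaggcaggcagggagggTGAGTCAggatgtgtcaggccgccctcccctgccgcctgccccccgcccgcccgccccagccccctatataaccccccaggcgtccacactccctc
CCL20 (chr2:227813692-227813841, + strand): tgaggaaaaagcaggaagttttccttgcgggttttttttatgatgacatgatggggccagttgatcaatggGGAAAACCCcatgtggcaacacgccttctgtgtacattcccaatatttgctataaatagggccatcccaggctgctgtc
TNFAIP3 (chr6:137867109-137867258, + strand): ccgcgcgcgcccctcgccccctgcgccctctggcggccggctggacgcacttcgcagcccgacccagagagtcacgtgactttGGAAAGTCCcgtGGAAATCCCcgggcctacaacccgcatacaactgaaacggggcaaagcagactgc

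GGNNNTTCC was found in 7 of these 8 windows, against 11.1% of 27303 RefSeq promoters of the same length. The members were chosen as genes under NF-kB and AP-1, so the shares of these sites describe the choice and test nothing. CXCL1, CXCL2, CXCL3 and TNFAIP3 held 2 matches each. The first match lay 78 to 70 bases before the start in CXCL1 and CXCL3, and 77 to 69 bases before it in CXCL2. Without gaps, the CXCL1 and CXCL3 windows were the same at 86% of their bases. At a shift of 1 base, CXCL2 was the same as CXCL1 at 66.7% and as CXCL3 at 65.3%, so the matches in these windows are not independent. TGANTCA was found in CXCL8 and IL11, 2 of 8, against 4.14% of all promoters. GGAATG, the core of a TEAD site, was found in CCL20 (1 of 8, with 7.09% of all promoters). The patterns do not overlap in these windows, and a match describes letters only. In CXCL2, CXCL3, CXCL8, IL6 and TNFAIP3 the gene body in the deposited table begins before the RefSeq start, so that these windows lie in part, or for IL6 wholly, within it.

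CXCL1, CXCL2 and CXCL3 lie together on chromosome 4 with CXCL8 (gene bodies chr4:73869393-73871242, chr4:74097035-74099293, chr4:74036589-74038807 and chr4:73740506-73743716 in the deposited table). Their coding sequences of 324 bases were the same at 93.5% of positions for CXCL1 and CXCL2, 94.4% for CXCL2 and CXCL3 and 90.7% for CXCL1 and CXCL3 (GENCODE 29). CXCL1 shared 6.12% of its 50-base stretches, coding and 3′ parts together, with CXCL2 and 0.612% with CXCL3, and none with CXCL8. How reads shared by such genes were assigned is not given in the sources used here, so the split between CXCL1, CXCL2 and CXCL3 is uncertain. The remaining loci were chr7:22725884-22732002 for IL6, chr19:55364389-55370463 for IL11, chr22:30240447-30246851 for LIF, chr17:34255218-34257203 for CCL2, chr2:227813842-227817564 for CCL20 and chr6:137867188-137883312 for TNFAIP3. An antisense gene overlapped 20.7% of the exon bases of IL6, and reads from both strands cannot be told apart where counting does not use strand. The heptamer TATTTAT, the core of elements that mark cytokine mRNAs for rapid decay, occurred at least 3 times after the stop codon in 7 of 10 members, against 5.4% of 17314 coding genes. CCL2 had none, CXCL2 had 8 and IL11 had 7.

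Of the members, CCL2 was the most abundant and CXCL3 the least. Over the 91 tumors, the mean level was 236 ± 99.4 FPKM (SD, n = 91) for CCL2 and 166 ± 111 for CCL20. CXCL8 had 118 ± 93.6 FPKM and IL6 had 118 ± 108. LIF had 38.7 ± 11.4, TNFAIP3 23.6 ± 11.96 and IL11 18.4 ± 8.20. The lowest were CXCL2 with 11.8 ± 7.64, CXCL1 with 7.24 ± 5.67 and CXCL3 with 4.43 ± 3.34. FPKM is per length, but the libraries were enriched with capture probes, so levels of different genes also depend on their probes. Of the 9 neighbouring pairs in this order, only LIF and TNFAIP3 differed by more than 1 SD of the higher gene. CXCL3 was listed at 0 in 6 tumors, CXCL2 in 2 and CXCL1 in 1 tumor.

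The partners that would receive these signals were unevenly present among the human transcripts. IL6ST (gp130) had 383 ± 33.6 FPKM in the 24 h vehicle tumors (SD, n = 4) and LIFR 108 ± 19.3. OSMR, the chain for oncostatin M (not a member), had 130 ± 15.5. IL6R, the specific chain for IL6, had 2.90 ± 1.07 FPKM and IL11RA had 0.614 ± 0.174. CXCR1, CXCR2, CCR2 and CCR6, the receptors of the chemokines, were listed at 0 in these 4 tumors. TNF had at most 0.415 FPKM there, whereas IL1B, which also drives NF-kB, had 15.3 ± 7.27 FPKM. Among leukocyte markers, CD163 and CD3E were listed at 0 in 90 of 91 tumors and FCGR3B in all 91, while PTPRC (CD45) had a median of 0.168 FPKM. CD68, a lysosomal protein made by many cells as well as macrophages, had a median of 139 FPKM. Without CD68, the other 11 leukocyte markers summed to 2.02 to 13.8 FPKM per tumor. All 8 mesothelial markers had means of at least 1 FPKM. MSLN, CALB2, KRT5 and KRT19 had medians of 255, 612, 878 and 479 FPKM, WT1 and PDPN of 29.1 and 57.4 FPKM, and UPK3B of 1.503 FPKM with 3 tumors listed at 0. ITLN1 was uneven, from 2.99 to 1773 FPKM. Reads from mouse cells were not examined here, since the treatment of such reads is not given in the sources used here. Leukocytes of the host are mouse cells, so these human markers are no measure of them, here or in the comparisons below.

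**Figure D1:**
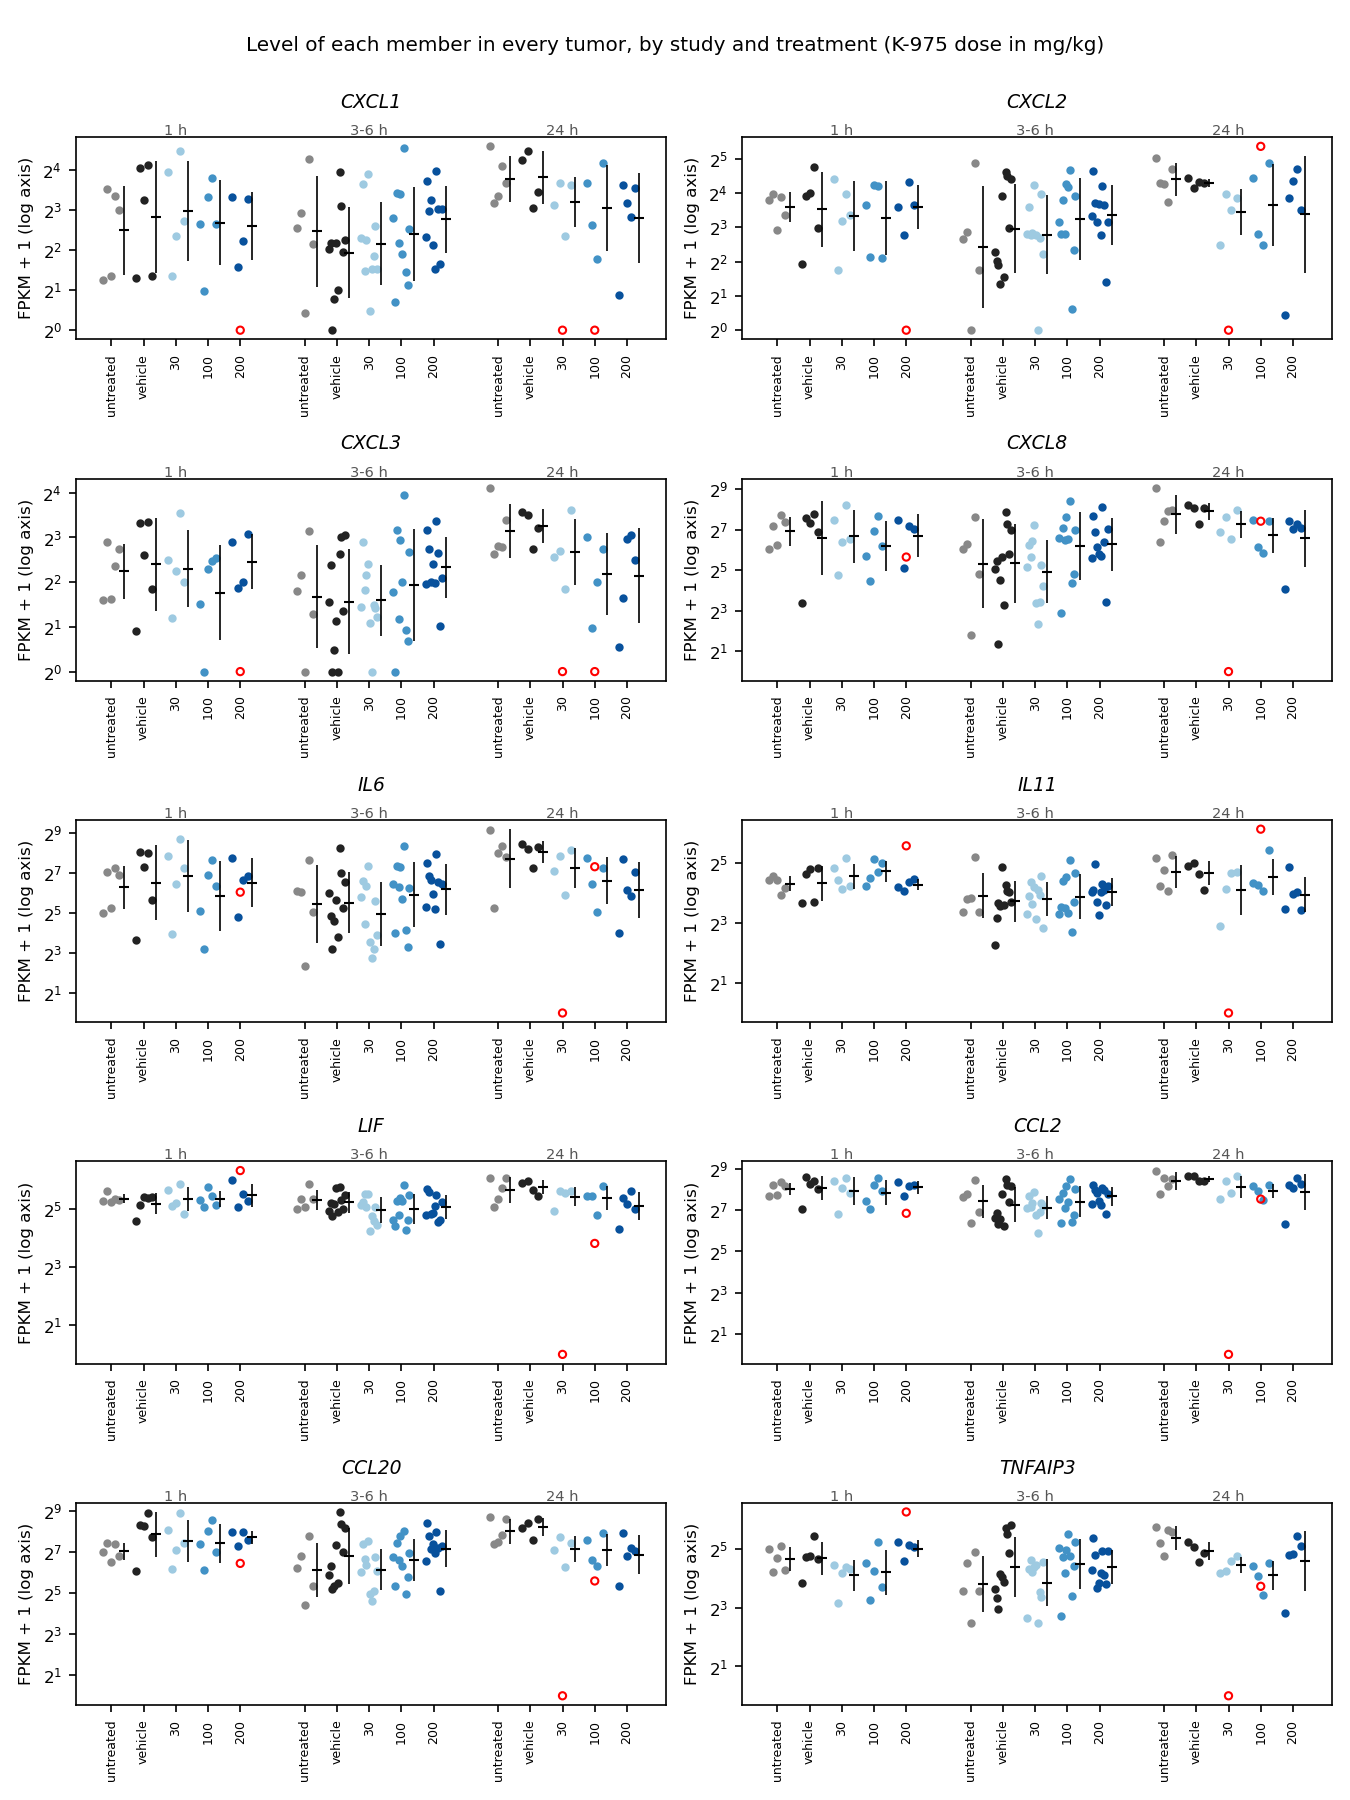
FPKM + 1 of each member in every tumor on a log axis (base 2), by study and treatment, with doses of K-975 in mg/kg. Each filled point is a tumor, bars are the mean ± SD of log2 values of the filled points, and open red circles are the 3 libraries of few genes. IL6 in the 4 vehicle tumors at 24 h lies between 152 and 349 FPKM, and in the 10 vehicle tumors at 3-6 h between 8.22 and 304 FPKM.

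The main feature of the members was their spread between tumors that had been treated alike. IL6 ranged from 8.22 to 304 FPKM among the 10 vehicle tumors of the 3-6 h study, a ratio of 37.0, with a median of 42.7 FPKM. CXCL8 ranged from 1.59 to 235 FPKM in the same tumors, a ratio of 148, around a median of 46.4. These tumors came from 2 cage groups, which may differ in time after the dose. Within vehicle cage groups 2 and 3 the ratios were 7.51 and 23.5 for IL6, and 31.3 and 26.8 for CXCL8. Untreated tumors also spread widely. IL6 in the 5 untreated tumors of the 3-6 h study was 4.11, 31.8, 65.3, 67.6 and 197 FPKM, so that 3 tumors lay near the middle, with 1 far below and 1 far above them. Expressed as the SD within groups on the log2(FPKM + 1) scale, IL6 (1.45) and CXCL8 (1.39) ranked 11th and 14th of 13036 genes. CXCL2 (1.09), CXCL1 (1.05), CXCL3 (0.92) and CCL20 (0.91) were in the top 1%. TNFAIP3 (0.69), CCL2 (0.61) and IL11 (0.59) stood at the 97.2, 94.8 and 94.0 percentile. LIF was the steadiest, with an SD of 0.39 at the 72.5 percentile. The median over all genes was 0.29. These ranks describe the members and no test was made of them.

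**Figure D2:**
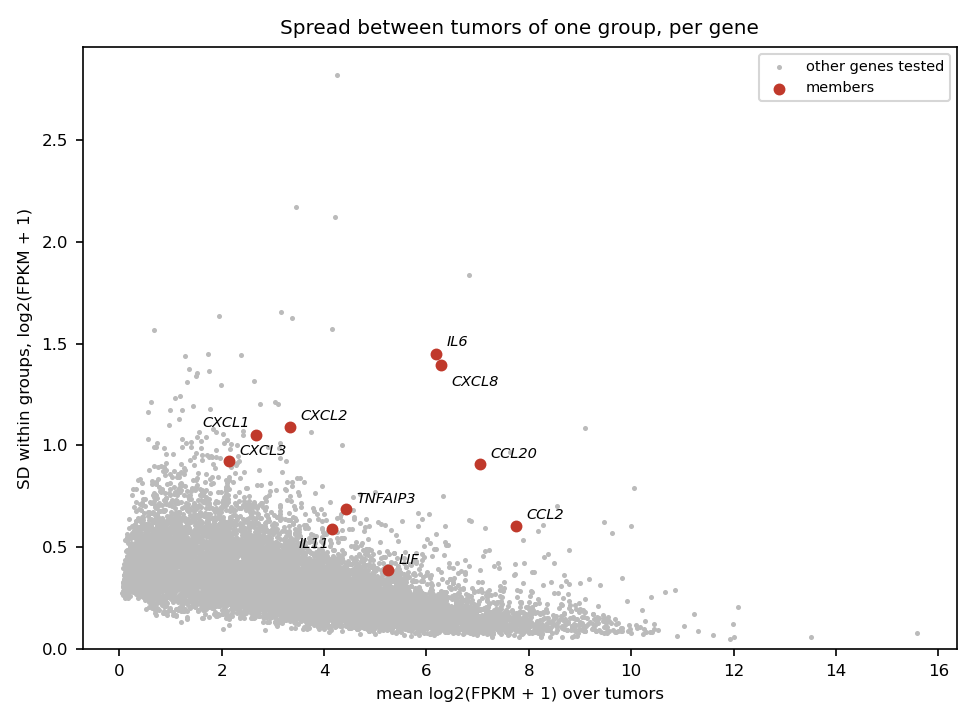
SD between tumors of one group against mean level for each of the genes tested, both on the log2(FPKM + 1) scale, with the members in red. IL6 (1.45) and CXCL8 (1.39) have the largest SD of the members, and LIF (0.39) has the smallest.

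The members rose and fell together across tumors. After subtraction of the group means, all 45 pairs were positively correlated over the 91 tumors, with Pearson's r from 0.30 to 0.93 (median 0.76) and Spearman's rho from 0.26 to 0.91 (median 0.74). All 45 had an adjusted p below 0.05 in a permutation test of tumors within groups, for r and for rho, and 39 pairs reached 1e-05 for r, the smallest p that the 100000 resamples can give. Without the 2 tumors farthest from the median, r changed by at most 0.056 and the lowest was 0.25. Within studies, r was positive for 45 of 45 pairs in each of the 3, with medians of 0.75 (1 h), 0.76 (3-6 h) and 0.74 (24 h). The lowest values within a study were 0.061 at 1 h, 0.32 at 3-6 h and 0.30 at 24 h. As background over the 91 tumors, the 95th percentile of r with all other genes lay between 0.34 (TNFAIP3) and 0.45 (CCL20). For IL11 this percentile was 0.42. The r of IL11 with CXCL1, CXCL3, IL6 and TNFAIP3 (0.41, 0.38, 0.39 and 0.30) lay below it, so these pairs were no closer than many pairs with other genes.

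The tightest pairs were IL6 with CXCL8 (r = 0.93, rho = 0.91), CXCL8 with CCL20 (r = 0.92) and IL6 with CXCL1 (r = 0.92), each a pair of genes on different chromosomes. IL11 stood apart: its r with the other 9 members had a median of 0.43, and its closest partner was LIF (r = 0.71), while its r with IL6 was 0.39. IL11 with TNFAIP3 was the loosest pair (r = 0.30, rho = 0.26). The tumors differed in how many genes reached 1 FPKM, which moved with the members: r was -0.39 for their mean log2 level, -0.67 for IL11, -0.50 for LIF and -0.26 to -0.41 for the rest. With that number regressed out, a step added after seeing the data, r between members ran from 0.16 to 0.92, with a median of 0.72. The summed human leukocyte markers without CD68 do not measure leukocytes of the mouse host. Their r with the mean of the members was 0.020.

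**Figure D3:**
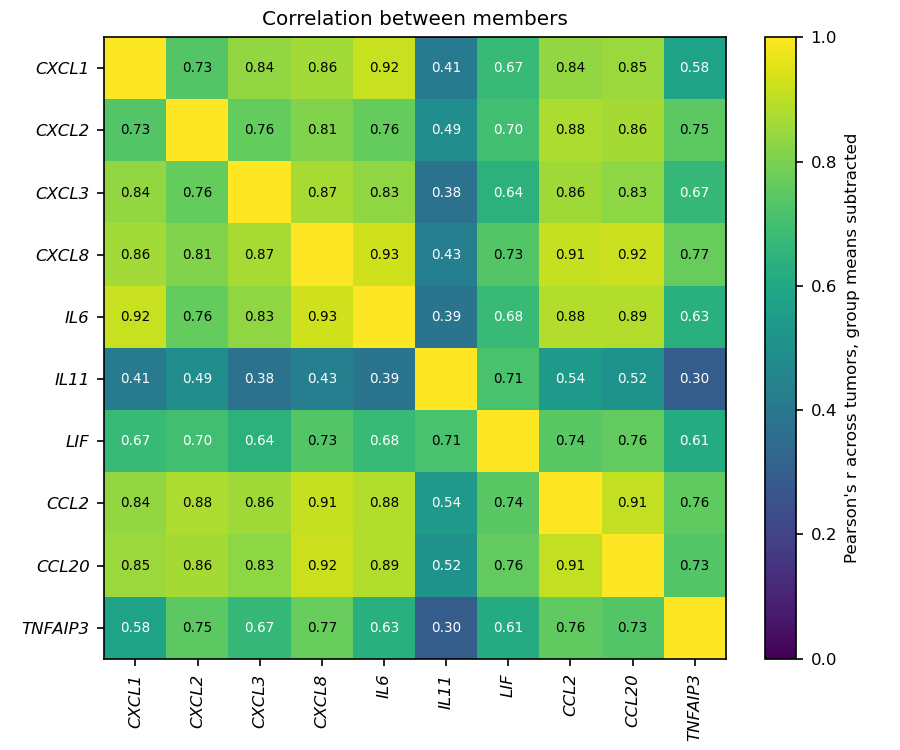
Pearson's r between each pair of members over 91 tumors, with group means of log2(FPKM + 1) subtracted. Values run from 0.30 (IL11 with TNFAIP3) to 0.93 (IL6 with CXCL8), and the lowest values are those of IL11.

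**Figure D4:**
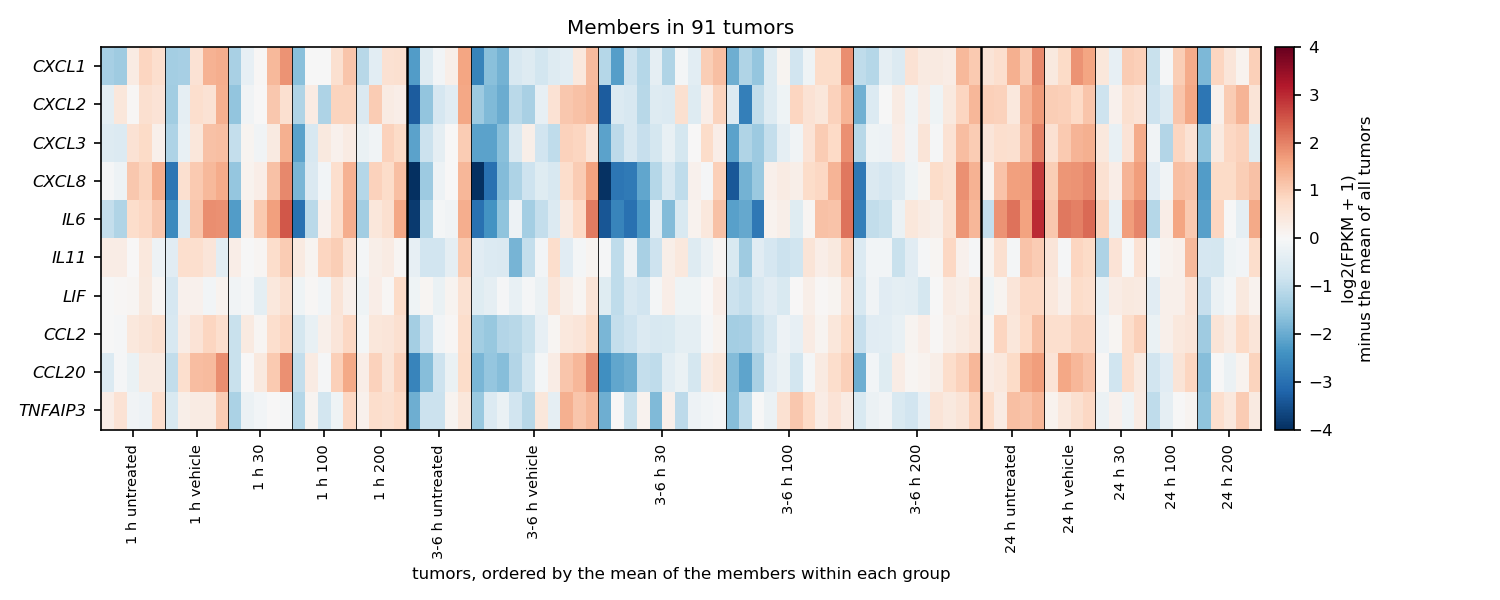
Level of each member (rows) in each of 91 tumors (columns, grouped by study and treatment and ordered by the mean of the members), as log2(FPKM + 1) minus the mean over all tumors. Whole columns are red or blue, so that the members are high or low together, most of all IL6 and CXCL8.

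Outside the list, the genes most like each member by r over the same 91 tumors were few and recurrent. SOD2, a mitochondrial superoxide dismutase, was among the 3 nearest genes of CXCL2 (r = 0.82), CXCL3 (0.85) and CXCL8 (0.93). IL6 was nearest to PI3 (0.93), the protease inhibitor elafin, and to SAA2 (0.93), a serum amyloid A protein whose near-identical copy SAA1 makes its count uncertain. AKR1B1, aldose reductase, was near CCL20 (0.92) and LIF (0.80), and SAA2 was also near CCL2 (0.89). MT2A, a metallothionein, was near CXCL1 (0.87). TNFAIP3 was nearest to NFKBIA (0.90), the inhibitor that holds NF-kB in the cytoplasm, followed by PPP1R15A (0.88) and SLC2A1 (0.86). LIF was nearest to TNIP1 (0.82), a partner of TNFAIP3, with IGFBP3 at 0.80. The nearest genes of IL11 were AXL (0.80), a receptor tyrosine kinase, F3 (0.76), tissue factor, and KRT34 (0.73). As background, 10 genes had r above 0.7 with IL11 and 133 with IL6, and the median r with all other genes was between -0.024 and -0.0031 for each member.

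No member was called in any comparison of K-975 with vehicle. At 1 h the 3 doses gave 0, 1 and 0 called genes of 13036 (0%, 0.00767% and 0%), with 571, 648 and 435 at an unadjusted p below 0.05, and 0 of 10 members were called at each dose by limma, with no unadjusted p below 0.05. The median difference of the members was -0.0087 log2 units at 30 mg/kg (5 lower, 5 higher), -0.33 for 100 mg/kg (8 lower, 2 higher) and 0.04 for 200 mg/kg (4 lower, 6 higher). Single libraries set these directions: leaving out each in turn gave medians of -0.44 to 0.21, -0.67 to 0.0086 and -0.32 to 0.32, and with all 94 libraries the last was -0.17 (7 lower). At 3-6 h the background was 0.0153%, 0.430% and 0.0690% of genes at 30, 100 and 200 mg/kg. Again 0 of 10 members were called at each dose, and none had an unadjusted p below 0.05.

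At 3-6 h the members had no direction that held over doses and cage groups. At 30 mg/kg 7 of 10 members were lower than vehicle (median -0.21 log2 units), whereas at 100 and 200 mg/kg 8 of 10 were higher (medians 0.22 and 0.41). Leaving out each library in turn moved these medians between -0.38 and -0.11, 0.074 and 0.40, and 0.24 and 0.60. The lowest medians at 100 and 200 mg/kg came without vehicle cage group 3 replicate 1, and at 100 mg/kg 6 of 10 members were then higher. The 30 mg/kg direction came from 1 cage group: against vehicle, cage group 8 had 8 of 10 members higher (median 0.23) and cage group 9 had 10 of 10 lower (median -0.61), with 0 of 10 called in either (0% and 0.0307% of genes).

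The 30 mg/kg cage groups differed in the same way when set against each other. IL6 was 5.73, 8.19, 10.7, 13.7 and 46.8 FPKM in cage group 9 and 21.1, 53.7, 80.0, 95.6 and 163 FPKM in cage group 8, so that 1 tumor of cage group 9 reached the range of cage group 8. All 10 members were lower in cage group 9, by a median of -1.01 log2 units, with the largest difference in CXCL8 (-2.42 ± 0.88, limma adjusted p = 0.56). Of these 4 had an unadjusted p below 0.05 and none was called (0% of genes, with 6.36% at an unadjusted p below 0.05).

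At 200 mg/kg and 3-6 h the positive values were 0.94 ± 0.62 for CXCL8, 0.82 ± 0.46 for CXCL1, 0.77 ± 0.40 for CXCL3 and 0.67 ± 0.64 for IL6 (SE). LIF was at -0.16 ± 0.17 and TNFAIP3 at -0.0048 ± 0.30. In FPKM, CXCL8 had a lowest value of 9.86, a median of 75.8 and a highest value of 275 at 200 mg/kg (n = 10), and 1.59, 46.4 and 235 with vehicle (n = 10). The groups overlapped over nearly their whole range. The linear trend with dose at 3-6 h called 0 of 10 members, with 0.215% of all genes called, although 3 members had an unadjusted p below 0.05: CXCL8 (0.62 ± 0.28 log2 units per 100 mg/kg), CXCL3 (0.40 ± 0.18) and CCL2 (0.24 ± 0.12).

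Vehicle tumors of the 2 cage groups also stood apart in that study. All 10 members were higher in vehicle cage group 3 than in vehicle cage group 2, by a median of 1.17 log2 units, and 4 had an unadjusted p below 0.05 (9.96% of all genes did), but none was called (0.330% of all genes were). TNFAIP3 in cage group 2 was 6.77, 9.03, 11.6, 15.8 and 17.0 FPKM, and in cage group 3 it was 13.8, 28.3, 45.4, 52.3 and 56.2 FPKM. Only the lowest tumor of cage group 3 lay within the range of cage group 2. The difference was 1.54 ± 0.42 (SE, limma adjusted p = 0.078), and without replicate 1 of cage group 3 its adjusted p was 0.017. CCL20 differed by 1.57 ± 0.57 (adjusted p = 0.28). The time after the dose and the cage cannot be told apart here.

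**Figure D5:**
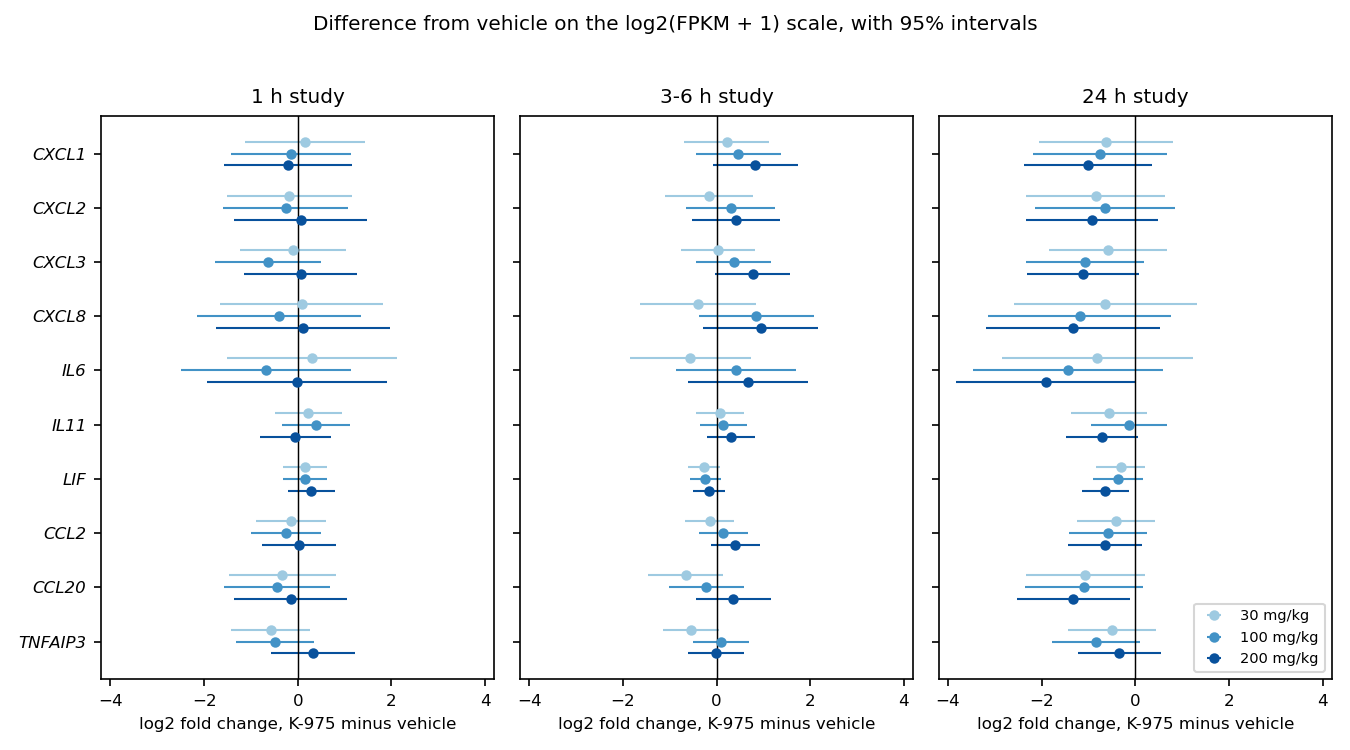
Log2 fold change of each member, K-975 minus vehicle, on the log2(FPKM + 1) scale with 95% intervals from limma, for 3 doses in 3 studies. All 30 values at 24 h lie left of zero, and the intervals that exclude zero are those of LIF and CCL20 at 200 mg/kg. The values at 24 h share the same vehicle tumors and the members vary together, so they are not independent.

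At 24 h all 10 members were lower than vehicle at each of the 3 doses, and none was called. The share of all genes called was 0.0384% for 30 mg/kg, 1.12% for 100 mg/kg and 7.41% for 200 mg/kg. The 3 doses share the same 4 vehicle tumors. The members also vary together across tumors (median r 0.76), so a shared direction is not 10 separate observations. Without K-975, the 2 vehicle cage groups at 3-6 h likewise differed in 1 direction in 10 of 10 members (median 1.17 log2 units). The median difference of the members was -0.60 log2 units for 30 mg/kg, -0.80 for 100 mg/kg and -0.97 for 200 mg/kg, while the highest dose moved the median of all genes by 0.04. These medians give no order of doses: leaving out each library in turn moved them between -0.82 and -0.38, -1.09 and -0.51, and -1.14 and -0.56. The smallest were those without 30 mg/kg replicate 4 (10 of 10 lower), without 100 mg/kg replicate 3 (9 of 10 lower) and without 200 mg/kg replicate 1 (9 of 10 lower). At 200 mg/kg 2 of 10 members had an unadjusted p below 0.05, and 0 of 10 at the lower doses, where the shares of all genes with such a p were 10.0%, 14.1% and 21.9% in order of rising dose. The members' count was thus no more than the background. The linear trend with dose at 24 h was negative for all 10 members and called none, with 5.61% of all genes called. At 1 h the trend called none either (0% of genes, with 444 at an unadjusted p below 0.05).

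IL6 had the largest difference. In the 4 vehicle tumors at 24 h it was 152, 294, 313 and 349 FPKM, and at 200 mg/kg it was 15.1, 56.0, 70.3, 130 and 209 FPKM. Thus 4 of the 5 treated tumors lay below all vehicle tumors, and the fifth lay among them. The difference was -1.90 ± 0.97 log2 units (SE, 95% interval -3.83 to 0.03, limma adjusted p = 0.24). At 100 mg/kg it was -1.43 ± 1.02 and at 30 mg/kg -0.81 ± 1.02.

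LIF came nearest to the threshold. It was 42.8, 49.9, 59.3 and 62.1 FPKM with vehicle and 19.1, 31.2, 35.4, 41.1 and 49.0 FPKM at 200 mg/kg, again with 4 of 5 treated tumors below all vehicle tumors. The difference was -0.64 ± 0.25 log2 units (95% interval -1.14 to -0.14, limma adjusted p = 0.105). IL11, the third gp130 cytokine, had -0.71 ± 0.38 (adjusted p = 0.27) with 4 of 5 tumors below vehicle.

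Among the chemokines, CCL20 was 191, 288, 331 and 386 FPKM with vehicle and 39.9, 110, 130, 145 and 242 FPKM at 200 mg/kg. Its difference was -1.32 ± 0.60 log2 units (95% interval -2.53 to -0.12, limma adjusted p = 0.18). CXCL8 was 155, 265, 273 and 293 FPKM with vehicle and 15.7, 132, 133, 153 and 174 FPKM at 200 mg/kg. In both genes 4 of 5 treated tumors lay below all vehicle tumors. The tumor not below them was replicate 2 in both genes and in IL6 and IL11, and replicate 4 in LIF and CCL2. These splits are thus not separate observations, and the share of all genes with such a split is not given here. The CXCL8 difference was -1.33 ± 0.93 (adjusted p = 0.43). CXCL3 had -1.11 ± 0.60, CXCL1 -1.01 ± 0.68, CXCL2 -0.93 ± 0.71 and CCL2 -0.64 ± 0.40, with adjusted p from 0.27 to 0.48. TNFAIP3 had the smallest difference, -0.34 ± 0.45 (adjusted p = 0.71), with 1 of 5 treated tumors below and 1 above all vehicle tumors.

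The same tumor, 24 h 200 mg/kg replicate 1, was lowest of its group in 9 of 10 members, and in IL11 it was second lowest, at 10.2 FPKM against 9.81 FPKM. Without it the TNFAIP3 difference was 0.11, that of CXCL2 was -0.20 and that of CCL2 -0.25, while IL6 had -1.37 and LIF -0.45. Other measures also differed between these groups: the leukocyte markers without CD68 summed to 3.93 to 6.09 FPKM with vehicle and 6.26 to 8.36 FPKM at 200 mg/kg, and the count of genes reaching 1 FPKM was 11356 to 11422 with vehicle and 11424 to 11613 at 200 mg/kg. Neither range overlapped, and their part in the differences was not tested.

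Groups did not overlap for CXCL2 at 30 mg/kg (1 member, with 2.84% of all genes wholly below vehicle) and for CCL2 and TNFAIP3 at 100 mg/kg (2 members, with 2.94% of all genes). With 4 tumors against 4 these were differences of -0.85 ± 0.75, -0.58 ± 0.42 and -0.84 ± 0.47. TNFAIP3 at 100 mg/kg was 9.76, 15.8, 20.4 and 22.1 FPKM, against 22.9 to 37.5 FPKM with vehicle.

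With all 94 libraries, 5 members were called as lower at 30 mg/kg and 24 h (IL11, LIF, CCL2, CCL20 and TNFAIP3), where 22.7% of all genes were then called. That group then held the library in which all 10 members were listed at 0, so these calls rest on it. At 200 mg/kg the same fit called 0 members and 0% of genes, with 592 genes at an unadjusted p below 0.05. The 24 h vehicle and 200 mg/kg groups held none of the 3 libraries of few genes, so the differences stayed the same. Only the spread shared by all groups grew: LIF had -0.64 ± 0.25 log2 units (SE) with 91 libraries and -0.64 ± 0.46 with 94.

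The effect of 200 mg/kg was compared between studies by a test of the difference itself. All 10 members had a lower effect at 24 h than at 3-6 h, by a median of -1.51 log2 units, and 7 had an unadjusted p below 0.05 (16.3% of all genes did), but 0 of 10 were called (1.72% of all genes were). The largest was IL6, with -2.57 ± 1.16 (limma adjusted p = 0.24), and the lowest adjusted p was 0.157, for CXCL3 (-1.89 ± 0.72). Against 1 h, 24 h had a lower effect in 10 of 10 members, with none called (0.583% of genes). The 3-6 h study against 1 h had 0 called members and 0% of genes called, with 604 genes and no member at an unadjusted p below 0.05. Study and time after the dose cannot be told apart.

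Handling and vehicle, measured as vehicle minus untreated, called 0 members and 0% of genes at 1 h, 0% at 3-6 h and 0% at 24 h, with 616, 629 and 547 genes at an unadjusted p below 0.05 and none of them a member. The member medians were 0.04, -0.04 and 0.10 log2 units. In the untreated tumors at 24 h, IL6 was 36.7, 222, 252, 328 and 572 FPKM and CCL20 was 165, 177, 224, 385 and 417 FPKM. Set against untreated instead of vehicle tumors, all 10 members were still lower at each dose at 24 h, with a median of -0.98 log2 units at 200 mg/kg and none called.

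The calls among the members came from untreated tumors of different studies. TNFAIP3 was 4.53, 10.9, 11.0, 22.1 and 28.8 FPKM at 3-6 h and 26.0, 35.7, 46.7, 49.0 and 52.9 FPKM at 24 h, with a single tumor of the earlier study reaching the range of the later one. CCL20 was 20.2, 39.7, 72.5, 109 and 220 FPKM at 3-6 h, so that 4 of 5 tumors lay below the lowest of the 24 h study. The differences, 24 h minus 3-6 h, were 1.57 ± 0.42 for TNFAIP3 (limma adjusted p = 0.017) and 1.89 ± 0.57 for CCL20 (adjusted p = 0.039). Both rose, and 2 of 10 members called compares with 4.36% of all genes. The other 8 members were also higher at 24 h, from 0.34 ± 0.24 for LIF to 2.43 ± 0.88 for CXCL8, and 9 of 10 had an unadjusted p below 0.05, with 17.9% of all genes. With all 94 libraries neither was called (0.00767% of genes, TNFAIP3 adjusted p = 0.51). The untreated groups held none of the 3 libraries of few genes, so the differences stayed the same and only the shared spread grew. Without replicate 3 of the 3-6 h tumors, the lowest of its group in 8 of 10 members, no member was called, and without replicate 4, the highest in all 10, 5 were.

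The other pairs of studies called no member. Untreated tumors at 24 h minus 1 h were higher in 10 of 10 members, with 0 called by limma (0.00767% of genes) and none at an unadjusted p below 0.05. At 3-6 h minus 1 h, 10 of 10 were lower, with 0 called (0.0997% of genes) and 1 at an unadjusted p below 0.05. The order of the studies was thus 3-6 h, 1 h, 24 h for each member, and no member was called between neighbours in that order. Each study had its own tumors and its own sampling time, so study and time cannot be told apart.

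Other gene lists are described beside the members for untreated tumors of the 24 h and 3-6 h studies. The NF-kB list was chosen with earlier results of these data known, so its counts are a description and test nothing. SOD2, on that list, is also among the genes most like CXCL8 (r = 0.93), so its rise is not separate from that of the members. Of 22 measured subunits and feedback genes (23 listed), 7 rose in untreated tumors at 24 h against 3-6 h, none fell, and 21 were higher, with a median of 0.48 log2 units against -0.04 for all genes. SOD2 had 1.39 ± 0.39, CYLD, an enzyme that removes ubiquitin chains, 1.15 ± 0.26, and BIRC3, an inhibitor of cell death, 1.02 ± 0.21 (SE, limma adjusted p = 0.025, 0.0039 and 0.0021). Among 10 AP-1 subunits 1 rose, FOSL1 (1.45 ± 0.41), and of 13 measured genes of gp130-STAT3 output and feedback 1 rose, CEBPB (0.88 ± 0.18). Of 17 measured upstream cytokines and receptors, IL1A rose (1.36 ± 0.35) and IL18 fell (-0.54 ± 0.16). Of 7 measured other chemokines CXCL16 fell (-0.64 ± 0.15). Of all genes, 4.36% were called between these untreated groups. The calls in the lists of 10, 13 and 7 genes rest on 1 gene each. Those in the list of 17 were IL1A and IL18, which moved in opposite directions. The calls in these lists are thus no result about the lists. None of the 9 decay factors and none of the 5 measured receptors, OSMR among them, was called. The leukocyte markers without CD68 summed to 4.82 to 8.20 FPKM at 3-6 h and 4.68 to 6.80 FPKM at 24 h. CD68 rose (1.07 ± 0.24), while CALB2 and the receptor KDR fell. KDR had a median of 63.9 FPKM over the 91 tumors. Of the other endothelial markers, PECAM1 was listed at 0 in 79 of 91 tumors and CLDN5 in all 91. VWF and CDH5 had medians of 0.989 and 1.09 FPKM, so KDR alone does not mark endothelial cells here. With all 94 libraries none of the genes named here as rising or falling was called. That fit took its spread from the 3 libraries of few genes as well.

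In the response to 200 mg/kg at 24 h, where 7.41% of all genes were called, few genes of these lists passed the test. Of the 5 measured receptors 2 fell: LIFR, the receptor of LIF, with -0.93 ± 0.20 log2 units, and OSMR, the receptor chain for oncostatin M (not a member), with -0.52 ± 0.14 (limma adjusted p = 0.0014 and 0.010). LIFR had 108 ± 19.3 FPKM with vehicle (SD, n = 4) and 55.9 ± 6.24 at 200 mg/kg (n = 5), and the groups did not overlap, since the lowest vehicle tumor had 91.4 and the highest treated tumor 64.8 FPKM. IL6ST had 383 ± 33.6 and 391 ± 41.1 FPKM. SOCS3, the feedback inhibitor that gp130 signals induce, fell too (-0.73 ± 0.19 log2 units, limma adjusted p = 0.0085), from 28.1 ± 1.27 to 16.9 ± 3.88 FPKM, as the 1 called gene of 13 in its list. Untreated tumors at 24 h had 81.5 ± 11.1 FPKM of LIFR (n = 5), with a lowest value of 66.6, above the highest treated tumor. At 100 mg/kg the kinase PIM1 was the 1 called gene of that list (-0.84 ± 0.22, limma adjusted p = 0.038). With all 94 libraries 2 of 13041 genes were called at 100 mg/kg and 24 h, and whether PIM1 was among them is not given here.

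Of the 22 NF-kB genes 1 fell at 200 mg/kg and 24 h, TRAF2, an adaptor of TNF receptors (-0.48 ± 0.11), with 18 of 22 lower and a median of -0.23 log2 units. A single call in this list, as in those of 13, 17 and 9 genes, lies near the share of all genes or rests on 1 gene, and is no result about the list. IRAK1, a kinase of the IL-1 receptor pathway, was the 1 called of 17 upstream genes (-0.24 ± 0.06). ELAVL1, which protects mRNAs with AU-rich elements from decay, was the 1 called of 9 decay factors (-0.43 ± 0.12). None of 10 AP-1 subunits, 7 other chemokines, 7 leukocyte, 5 fibroblast or 3 endothelial markers was called. Of 8 mesothelial markers 3 rose, MSLN, CALB2 and KRT19, by 0.40, 0.39 and 0.32 log2 units. With all 94 libraries none of these genes was called, as the shared spread then took in the 3 libraries of few genes. At 1 h no gene of any list was called at any dose, and at 3-6 h the called genes of the lists were TEAD targets alone. Of 4 TEAD targets, CCN1 and CCN2 fell at 200 mg/kg and 24 h, and of 4 measured cell line genes 1 fell, TEAD4 (-0.74 ± 0.12).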

How the data were processed

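Tumors of 94 mice in 19 groups were profiled by RNA sequencing after enrichment with capture probes. The authors deposited 1 table of FPKM values per gene and library. Per the labels the submitters' processing notes name STAR and GRCh38; the quantifier, the annotation, the handling of mouse reads and the use of strand are not given in the sources used here. The table had 20555 entries. For gene IDs with several entries, 298 further entries were left out, and 32 blank cells were read as 0. The table holds no counts, so sequencing depth is unknown and no counting interval is given; libraries with fewer than 10000 genes that reached 1 FPKM were left out (3 of 94). The series description speaks of 2 untreated groups, whereas the sample labels show 3.

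Genes that reached 1 FPKM in 4 or more libraries were fitted with limma 3.58.1 (R 4.3.3; trend and robust) on log2(FPKM + 1), with 1 coefficient per group and Benjamini-Hochberg adjustment over all genes per comparison (threshold 0.05). A fold change on this scale understates the change of low genes. The procedure was also run on simulated data with known changes. Genes were drawn there as independent normal values, so that run does not cover genes that vary together, as the members do. Correlations used log2(FPKM + 1) less the group mean and 100000 two-sided permutations of tumors within groups (numpy 2.4.6, pandas 2.3.3, scipy 1.17.1), adjusted over 45 pairs. Alternatives were all 94 libraries, a pseudocount of 0.1, no filter, quantile normalization, only the groups compared, untreated in place of vehicle, and each library left out in turn.

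The members and all gene lists (NF-kB, AP-1, upstream cytokines, other chemokines, receptors, gp130-STAT3, mRNA decay, TEAD targets, cell line genes and markers of mesothelial, leukocyte, fibroblast and endothelial cells) were chosen with earlier results of these data known. From each list at most 3 called genes per comparison were named, by size of the log2 fold change, and the 3 genes with the highest r for each member. One gene among the latter is not reported here. CXCL1, IL6 and TNFAIP3 are also on the study's own list of YAP1-TEAD effector genes, which came from other datasets. Promoters are from RefSeq (GRCh38.p14), and coding and 3′ sequences from GENCODE 29.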

Additional observations from a re-analysis of the deposited data

Results flagged for a closer look

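Of 190 sets of 1 member in 1 group, 13 held a tumor far from the others of its group by Dixon's test on FPKM. About 1 in 20 would be marked in independent sets of normal values. These values were not on the log scale of the fits, and the members vary together, so that rate need not hold. In the tumors of the 1 h study the marked values were LIF at 48.64 FPKM (untreated replicate 2, high) and TNFAIP3 at 8.05 FPKM (30 mg/kg replicate 2, low).

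At 3-6 h, untreated replicate 4 was high in CXCL2 (28.55 FPKM) and IL11 (36.01 FPKM). Vehicle cage group 2 replicate 5 was high in CXCL2 (14.16 FPKM) and CCL2 (224.4 FPKM). The 100 mg/kg cage group 7 replicate 2 was high in CXCL1 (22.17 FPKM) and IL6 (325 FPKM). High single values were CXCL2 at 24.23 FPKM (200 mg/kg cage group 4 replicate 2) and IL6 at 46.8 FPKM (30 mg/kg cage group 9 replicate 4).

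At 24 h, CXCL8 was low at 15.69 FPKM in 200 mg/kg replicate 1, IL11 was high at 42.22 FPKM in 100 mg/kg replicate 4, and LIF was low at 29.88 FPKM in 30 mg/kg replicate 2.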

How the results depend on the processing

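With all 94 libraries, 5 members were called at 30 mg/kg and 24 h, and 0 between untreated tumors of the 24 h and 3-6 h studies, where the fit of 91 called 2. The untreated groups held none of the 3 libraries of few genes, so only the shared spread changed there. In that untreated comparison 1 member, TNFAIP3, was called without a filter on low values and 1, again TNFAIP3, with only the groups compared. Leaving out each library in turn gave 0 to 5 called members there: 0 without 3-6 h untreated replicate 3 or 5 or 24 h untreated replicate 1, 1 (TNFAIP3) without 3-6 h replicate 1 or 24 h replicate 4 or 5, and 5 without 3-6 h replicate 4. For vehicle cage groups 3 and 2 it gave 0 to 1, with TNFAIP3 called without cage group 3 replicate 1. The counts of members called in the other comparisons stayed at 0 under every alternative run. The sign of uncalled dose differences of single members moved in 76 and held in 1064 values from fits without 1 library, and moved in 23 of 90 with untreated in place of vehicle. The cause was not tested. The median r between members was 0.740 with all 94 libraries and 0.745 with a pseudocount of 0.1. No paired analysis was possible because the replicate numbers follow accession order and pair no samples. Depth is unknown, so low levels of CXCL1, CXCL2 and CXCL3 carry an error that cannot be given.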
